A study of Mus musculus with 6 samples.

Results

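Adipocytes store fatty acids as triglyceride, and the glycerol backbone they need is glycerol 3-phosphate. White fat cells have little glycerol kinase, so they make glycerol 3-phosphate either from glucose or, when glucose is scarce, from pyruvate and lactate, a route called glyceroneogenesis. In that route pyruvate carboxylase and phosphoenolpyruvate carboxykinase (PEPCK) carry pyruvate up to phosphoenolpyruvate, lower glycolysis runs backwards to dihydroxyacetone phosphate, and glycerol 3-phosphate dehydrogenase finishes the path, while glycerol set free by lipolysis leaves the cell through an aquaglyceroporin.

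Expression of 7 genes of this route was examined, out of 24421 gene symbols counted. They were chosen by function, with earlier results of these data known. The 7 were *Pcx* (pyruvate carboxylase), *Pck1* and *Pck2* (the cytosolic and the mitochondrial PEPCK), *Gpd1* and *Gpd2* (the cytosolic and the mitochondrial glycerol 3-phosphate dehydrogenase), *Aqp7* (the aquaglyceroporin of fat cells) and *Pdk4* (a kinase that switches off pyruvate dehydrogenase and so spares pyruvate). All 7 passed the filter on low counts. A further 65 genes that feed, drain or control the route were followed as partners, and 57 of them passed the filter.

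The libraries came from 3T3-L1 adipocytes, fat cells differentiated in culture from a mouse preadipocyte line, for which the labels give the strain C57BL/6. On day 7 of differentiation they received 100 pfu/cell of adenovirus, with *LacZ* as the control (AdLacZ, 3 libraries) or with *Lmo3*, a LIM domain cofactor of transcription (AdLmo3, 3 libraries), and total RNA was taken 72 h later from 3 separate infections per virus. Both groups had been induced 2 days after confluency with 870 nM insulin, 5 µM TZD (a thiazolidinedione, the drug class that activates PPARγ), 1 µM Dex (dexamethasone, a glucocorticoid) and 500 µM IBMX (which raises cAMP) in medium with 10% CS, and both lost Dex and IBMX on day 3 while insulin and TZD stayed, so neither group lacked a PPARγ ligand. One cell line was used, and cells with no virus were not analysed here.

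Each library held 28035639 to 38332335 gene counts, so that 3 counts, taken as the smallest detectable level, came to 0.0768 to 0.111 CPM (counts scaled to the library total); such floors cover counting error only. The viral *Lmo3* was codon-optimized, and endogenous *Lmo3* was at 0 counts in every library, so this gene could not check the group labels. The 6 adipocyte markers (*Adipoq*, *Plin1*, *Fabp4*, *Lipe*, *Cidec* and *Cfd*) were abundant throughout and all 6 were called higher in AdLmo3, with log2 fold changes of 0.56 to 1.05 and a summed level of 10906 to 11317 CPM against 16506 to 20576 CPM. Of 5 preadipocyte markers none was called (1140 to 1699 against 1288 to 1715 CPM), and of 5 macrophage markers *Adgre1*, *Ptprc* and *Itgam* did not exceed 3 counts in any library, while *Cd68* (71, 163 and 128 counts in AdLacZ, 99, 65 and 40 in AdLmo3) and *Csf1r* (14 to 30 counts) were above the floor and not called (adjusted p = 0.246 and 0.442). The 5 macrophage markers summed to 2.73 to 4.61 CPM in AdLacZ and 2.11 to 3.51 CPM in AdLmo3, and the hepatocyte markers together reached at most 0.513 CPM, with *Ttr* at 0. The 6 interferon response genes ranged from 314 CPM in AdLmo3 1 to 2297 CPM in AdLmo3 3, with AdLacZ between 707 and 996 CPM, and none was called; for these and the preadipocyte markers edgeR also had 0 at an unadjusted p under 0.05 and DESeq2 and voom called 0. In RNA from whole cultures, a difference in the number of mature fat cells and a difference in RNA per cell cannot be told apart.

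Upstream sequence was inspected where the 2 PEPCK genes part and for the glycerol channel, since *Pck1* and *Aqp7* are textbook targets of hormone-responsive factors. The 120 bases before the RefSeq transcript start (GRCm38.p6) are shown for *Pck1* (chr2:173152953-173153072, plus strand), *Pck2* (chr14:55540146-55540265, plus strand) and *Aqp7* (chr4:41048137-41048256, minus strand), with matches to the searched motifs in capitals. In the GENCODE annotation 25 of the *Pck1* bases and 3 of the *Aqp7* bases shown lie in exons of the gene itself.
Pck1: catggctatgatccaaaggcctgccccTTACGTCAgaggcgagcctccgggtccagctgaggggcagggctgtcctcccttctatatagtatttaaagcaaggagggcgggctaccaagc
Pck2: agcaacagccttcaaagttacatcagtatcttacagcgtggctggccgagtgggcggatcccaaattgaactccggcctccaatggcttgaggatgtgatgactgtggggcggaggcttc
Aqp7: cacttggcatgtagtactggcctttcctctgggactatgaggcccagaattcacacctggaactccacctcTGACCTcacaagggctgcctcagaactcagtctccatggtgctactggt

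The windows searched ran from 250 bases before to 50 after each start, on both strands, and 6 of the 7 genes had an entry, with 9 windows between them; *Gpd1* had none. The capitals in *Pck1* spell TTACGTCA, a variant of the cAMP response element, 93 bases before the start (chr2:173152980-173152987), a motif held by 0.499% of all 32851 windows of that length. The capitals in *Aqp7* are AGGTCA read on the opposite strand, a nuclear receptor half-site 49 bases before the start, which 16.3% of all windows hold; a second, downstream *Aqp7* start had another 101 bases before it. *Pcx* had the E-box CACGTG 248 bases before its first start (7.15% of all windows) and AGGTCA 40 bases into its second. No match was found in the windows of *Pck2*, *Pdk4* and *Gpd2*, and neither TGACGTCA (1.79% of all windows) nor TTGCGCAA (0.183%) was found in any of the 9. These matches are letters only, and binding was not measured.

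Compared per exon length, as RPKM (CPM per kilobase of exon), *Gpd1* was the most abundant of the 7 transcripts in AdLacZ with a mean of 886 RPKM, followed by *Pcx* (309 RPKM) and *Pck1* (84.7 RPKM). *Aqp7* (24.8 RPKM), *Pdk4* (18.7 RPKM) and *Pck2* (15.6 RPKM) came next, and *Gpd2* was lowest at 6.93 RPKM. The same order held in AdLmo3, where the 3 abundant enzymes stood at 1279 RPKM (*Gpd1*), 442 RPKM (*Pcx*) and 193 RPKM (*Pck1*). In RPKM *Aqp7* was then at 30.5, *Pdk4* at 17.6, *Pck2* at 13.8 and *Gpd2* at 8.33. The closest neighbours in AdLacZ were *Pdk4* (18.7 ± 1.51 RPKM) and *Pck2* (15.6 ± 1.21 RPKM, SD, n = 3 each), and each step in the order was larger than the SD of either neighbour in both groups. Exon length here is that of all annotated transcripts of a gene together, and the SD between libraries does not cover error in it. The order of *Aqp7*, *Pdk4* and *Pck2* depended on this length (2828, 3511 and 7806 bases). Before division by it *Pck2* was the highest of these, at 122 CPM in AdLacZ beside 70.2 (*Aqp7*) and 65.5 CPM (*Pdk4*). In AdLmo3 the values were 107, 86.3 and 61.8 CPM. The 3 most abundant genes were thus also the 3 that were called higher, whereas the 4 at lower levels were not called.

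To ask which steps differed between AdLmo3 and AdLacZ, each gene was read from one edgeR fit over all 12766 tested genes. Of the 7 genes, 3 were called higher (*Pck1*, *Pcx* and *Gpd1*; adjusted p under 0.05), and 0 were called lower; over all tested genes 2.71% were called higher and 1.57% lower. At an unadjusted p under 0.05 edgeR had 5 of the 7 higher and 0 lower, beside 11.1% and 9.54% of all tested genes. DESeq2 called 4 of the 7 higher and 0 lower, beside 5.37% and 3.5% of the genes it gave an adjusted p. With limma voom the counts were 3 and 0, beside 2.8% and 1.6%. Groups did not overlap for 4 of the 7 genes, the called 3 and *Aqp7*, all with AdLmo3 on the higher side. Of all tested genes 13.3% were separated with AdLmo3 higher and 13.2% with AdLmo3 lower. The median log2 fold change of the 7 genes was 0.30, beside 0.00138 over all tested genes.

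**Figure D1:**
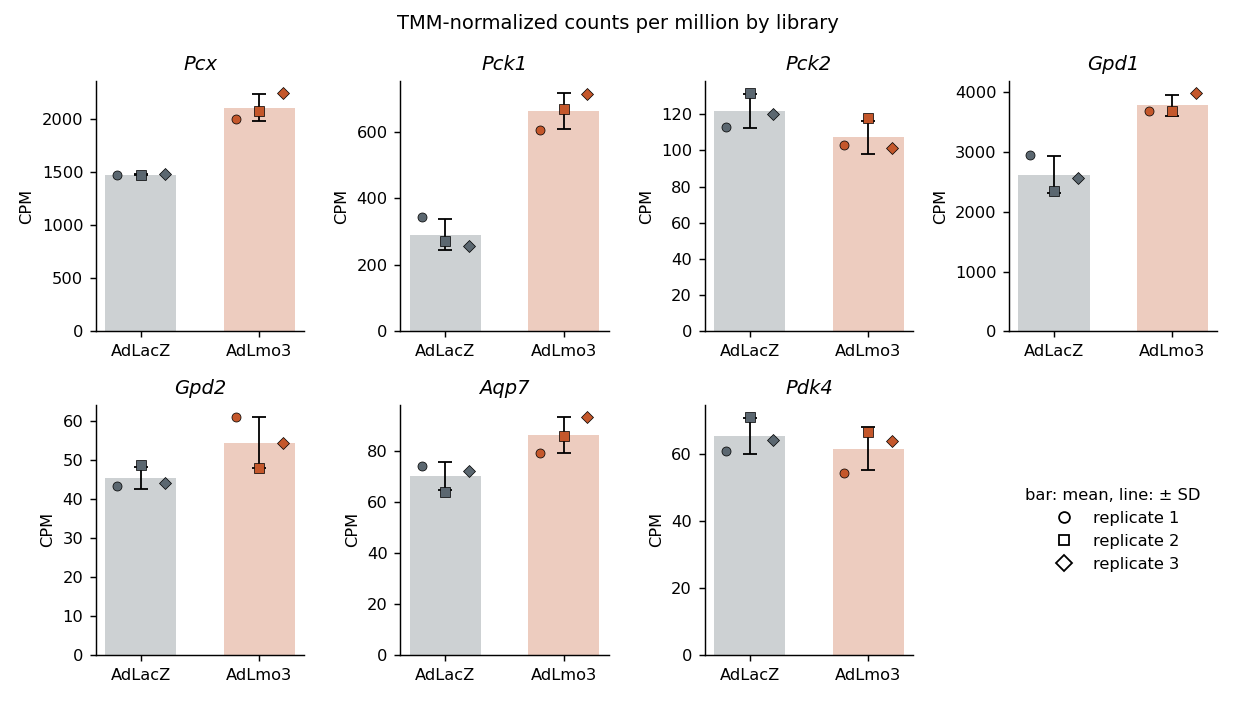
TMM-normalized CPM (linear axes from 0) of the 7 genes in the 3 AdLacZ and 3 AdLmo3 libraries; points are libraries, bars group means and lines ± 1 SD. AdLmo3 libraries lie above all AdLacZ libraries for *Pcx*, *Pck1*, *Gpd1* and *Aqp7*, and the groups overlap for *Pck2*, *Gpd2* and *Pdk4*.

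*Pck1* (chr2:173153048-173159273 in GRCm38, plus strand), whose product turns cytosolic oxaloacetate into phosphoenolpyruvate and is regarded as the controlling enzyme of the route in fat, showed the largest change of the 7. It measured 342, 272 and 257 CPM in AdLacZ 1 to 3 and 606, 668 and 713 CPM in AdLmo3 1 to 3. The lowest AdLmo3 library was thus well above the highest control, and the group means were 290 ± 45.7 and 662 ± 53.6 CPM (SD, n = 3 each). This is a 2.28-fold rise (log2 fold change 1.19, SE 0.120, 95% interval 0.91 to 1.47, adjusted p = 0.00352). It was the 26th smallest p and the 55th largest rise among all tested genes, and the call held under each of 13 alternatives, with log2 values of 1.11 to 1.32. The adipocyte markers, whose median log2 fold change was 0.65, rose in the same libraries; their part in the rise of *Pck1* and of the other genes was not tested.

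*Pck2* (chr14:55540266-55551242), which makes the same product inside mitochondria, did not pass the test. It stood at 113, 132 and 120 CPM in AdLacZ and at 103, 118 and 101 CPM in AdLmo3. The groups overlapped, and the log2 fold change was -0.18 (SE 0.0864, 95% interval -0.38 to 0.02, adjusted p = 0.291). That interval lies below that of *Pck1* throughout.

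The 2 PEPCK genes were therefore compared within each library, where scaling cancels. There were 3.02, 2.06 and 2.14 *Pck1* counts per *Pck2* count in AdLacZ and 5.89, 5.67 and 7.02 in AdLmo3. The ratios did not overlap and differed 2.60-fold (log2 difference 1.38), with p = 0.1 in an exact two-sided permutation test, the smallest p that 3 against 3 libraries can give (adjusted p = 0.167 over 5 ratios). Per exon length, *Pck1* made up 82.4 to 87.3% of PEPCK transcripts in AdLacZ and 92.8 to 94.1% in AdLmo3. The size of these shares depends on the exon lengths used, 3429 bases for *Pck1* and 7806 for *Pck2*. By counts as well as per exon length, the cytosolic form was the major one in both groups.

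*Pcx* (chr19:4510472-4621752, plus strand) encodes the mitochondrial enzyme that makes oxaloacetate from pyruvate, the first committed step of the route. Its AdLacZ libraries lay very close together at 1467, 1470 and 1474 CPM, and AdLmo3 reached 1993, 2071 and 2241 CPM. No AdLmo3 library came near a control, and the means of 1470 ± 3.84 and 2102 ± 127 CPM (SD, n = 3 each) gave a log2 fold change of 0.52 (SE 0.0763, 95% interval 0.34 to 0.69, adjusted p = 0.0122). The call was lost without AdLacZ 3 (adjusted p = 0.0733) and without AdLmo3 2 (adjusted p = 0.0574), with log2 values of 0.52 and 0.53.

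Pyruvate in mitochondria can instead be oxidized by pyruvate dehydrogenase, and the catalytic subunit gene of that complex, *Pdha1*, did not pass the test (log2 fold change 0.08, adjusted p = 0.505). The ratio of *Pcx* to *Pdha1* counts was 3.10, 3.05 and 3.02 in AdLacZ and 3.84, 4.09 and 4.44 in AdLmo3. These ratios did not overlap, with a log2 difference of 0.43 at the smallest p the design allows (exact permutation p = 0.1, adjusted p = 0.167). Of the *Pdha1* exon stretches of 75 bases, 10.6% were shared with an antisense gene, and the strand setting of the counting is not given in the sources used here.

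*Pdk4* (chr6:5483351-5496309, minus strand), the pyruvate dehydrogenase kinase best known from fasting, measured 61.0, 71.3 and 64.2 CPM in AdLacZ and 54.6, 66.8 and 63.9 CPM in AdLmo3. The groups overlapped and the log2 fold change was -0.09 (SE 0.0930, 95% interval -0.30 to 0.13, adjusted p = 0.666), near 0 without AdLmo3 1 (0.00177). Its sister kinase *Pdk2*, which acts on the same complex, was the only pyruvate dehydrogenase kinase called, with 65.2, 76.1 and 66.8 CPM in AdLacZ and 92.8, 96.8 and 92.0 CPM in AdLmo3 (log2 fold change 0.44, adjusted p = 0.0186). *Pdk1* (149, 409 and 319 CPM in AdLacZ) spread too widely to be placed, with an adjusted p of 0.704, and *Pdk3* had a log2 fold change of -0.23 (adjusted p = 0.334).

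Set against the sum of the other 3 kinases, *Pdk4* counted 0.243, 0.133 and 0.148 in AdLacZ and 0.113, 0.120 and 0.156 in AdLmo3, and the ratios overlapped (log2 difference -0.39, exact permutation p = 0.3). AdLacZ 1, with the highest of these ratios, is the library with the lowest *Pdk1*. Per exon length *Pdk4* made up 17.4 to 24.3% of kinase transcripts in AdLacZ and 14.8 to 18.6% in AdLmo3.

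*Gpd1* (chr15:99717515-99725005, plus strand), whose product reduces dihydroxyacetone phosphate to glycerol 3-phosphate, measured 2957, 2353 and 2562 CPM in AdLacZ and 3687, 3685 and 3991 CPM in AdLmo3. The groups did not overlap, although AdLacZ 1 stood above the other controls. The means of 2624 ± 307 and 3787 ± 176 CPM (SD, n = 3 each) gave a log2 fold change of 0.53 (SE 0.102, 95% interval 0.29 to 0.76, adjusted p = 0.0291). The call was lost without AdLacZ 2 (adjusted p = 0.0751), AdLacZ 3 (0.140), AdLmo3 2 (0.102) or AdLmo3 3 (0.0754), with log2 values from 0.46 to 0.55. Of its exon stretches 7.92% are shared with the antisense gene *Gm16537*, which the count tables do not list.

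*Gpd2* (chr2:57237635-57370719, plus strand), which oxidizes glycerol 3-phosphate at the inner mitochondrial membrane and so runs against *Gpd1*, measured 43.4, 48.7 and 44.1 CPM in AdLacZ and 61.2, 48.1 and 54.3 CPM in AdLmo3. AdLmo3 2 lay within the controls, and the log2 fold change of 0.26 (SE 0.0956, 95% interval 0.05 to 0.48) did not pass edgeR's adjustment over all tested genes (adjusted p = 0.166). The ratio of *Gpd1* to *Gpd2* overlapped between groups (log2 difference 0.27, exact permutation p = 0.2). *Gpd1* made up 98.3 to 98.5% of the transcripts of *Gpd1*, *Gpd2* and *Gpd1l* per exon length in AdLacZ and 98.5 to 98.8% in AdLmo3. Of the *Gpd2* exon stretches 5.14% are shared with an antisense gene.

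*Aqp7* (chr4:41033074-41048139, minus strand), the channel through which glycerol leaves fat cells, measured 74.2, 64.0 and 72.3 CPM in AdLacZ and 79.3, 85.9 and 93.5 CPM in AdLmo3. The groups did not overlap, but AdLacZ 1 and AdLmo3 1 lay close together. The means of 70.2 ± 5.41 and 86.3 ± 7.07 CPM (SD, n = 3 each) gave a log2 fold change of 0.30 (SE 0.0847, 95% interval 0.10 to 0.49). It did not pass edgeR's adjustment over all tested genes (adjusted p = 0.0952), whereas DESeq2 called it (adjusted p = 0.0343). Per exon length *Aqp7* made up 99.47 to 100% of the transcripts of *Aqp3*, *Aqp7* and *Aqp9* in AdLacZ and 99.71 to 99.73% in AdLmo3. *Aqp3* was at 0 to 6 counts and *Aqp9* at 0 to 7 counts. The partner gene *Aqp11* was not part of this share and was at 0.506 RPKM in AdLacZ and 0.593 RPKM in AdLmo3.

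Glycerol that stays in the cell is phosphorylated by glycerol kinase (*Gk*, listed as *Gyk*), which measured 41.7, 40.5 and 37.9 CPM in AdLacZ and 40.1, 26.9 and 31.2 CPM in AdLmo3 and did not pass the test (log2 fold change -0.29, adjusted p = 0.270). The ratio of *Aqp7* to *Gk* counts was 1.78, 1.58 and 1.91 in AdLacZ and 1.98, 3.20 and 3.00 in AdLmo3. The ratios did not overlap (log2 difference 0.61, exact permutation p = 0.1, adjusted p = 0.167), and AdLmo3 1 was the library nearest the controls.

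**Figure D2:**
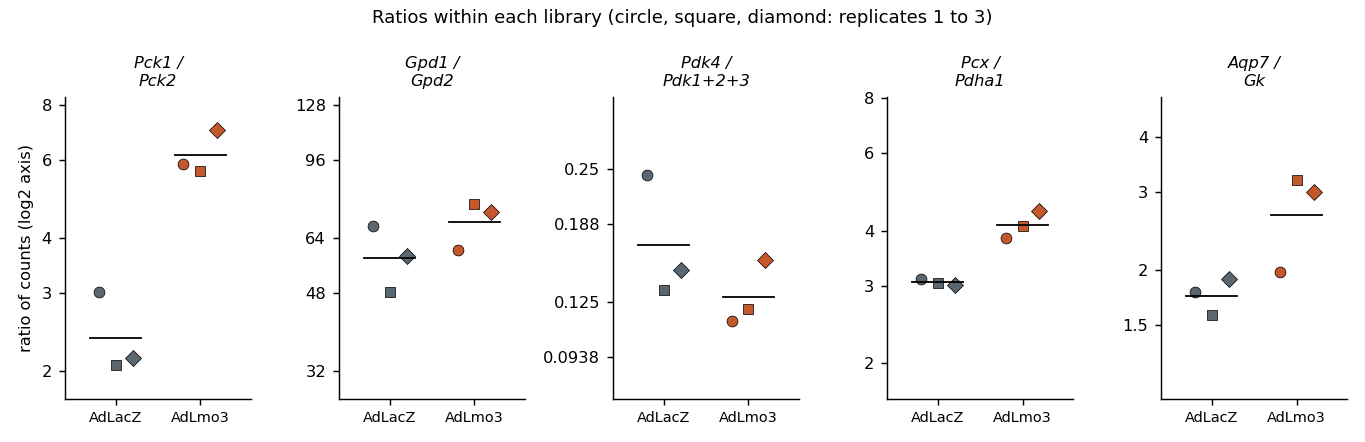
Ratio of the counts of a gene to those of its counterpart within each library (log2 axes); points are libraries and lines the group means of the log2 ratios. The ratios of *Pck1* to *Pck2*, *Pcx* to *Pdha1* and *Aqp7* to *Gk* do not overlap between groups, and the other 2 do.

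Among the partner genes, 6 of the 57 tested were called higher and 1 lower by edgeR, with a median log2 fold change of 0.10. Of all tested genes edgeR called 2.71% higher and 1.57% lower, with 11.1% and 9.54% at an unadjusted p under 0.05. DESeq2 called 5.37% and 3.5% of the genes it gave an adjusted p. Groups did not overlap for 13.3% (AdLmo3 higher) and 13.2% (AdLmo3 lower) of all tested genes. These shares also stand beside the counts of each list below. The list of oxaloacetate and malate exchange held 1 call in each direction. *Slc25a10*, the mitochondrial dicarboxylate carrier that lets malate out, measured 421, 430 and 392 CPM in AdLacZ and 614, 724 and 709 CPM in AdLmo3 (log2 fold change 0.72, SE 0.0854, adjusted p = 0.00496). *Got1*, the cytosolic aspartate aminotransferase that also yields oxaloacetate, went the other way, from 69.0, 80.2 and 72.4 to 56.1, 46.1 and 46.4 CPM (log2 fold change -0.58, SE 0.0950, adjusted p = 0.0173). Neither gene overlapped between groups, and edgeR called none of the remaining 8 tested genes in that list, of which 3 had an unadjusted p under 0.05. DESeq2 called these 3, named here after their values were seen. They were *Mdh1*, the cytosolic malate dehydrogenase (log2 fold change 0.35, adjusted p = 0.0681 by edgeR and 0.00284 by DESeq2), *Slc25a1*, the mitochondrial citrate carrier (0.37, adjusted p = 0.108 and 0.0175), and *Slc25a12*, an aspartate-glutamate carrier (-0.47, adjusted p = 0.0674 and 0.00686).

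Of 9 tested genes for the entry of pyruvate and lactate, edgeR called 1 and DESeq2 called 2. At an unadjusted p under 0.05 edgeR had 3 higher and 0 lower. *Mpc2*, a subunit of the mitochondrial pyruvate carrier, measured 85.7, 73.8 and 71.0 CPM in AdLacZ and 97.3, 102 and 99.5 CPM in AdLmo3 (log2 fold change 0.37, adjusted p = 0.0424). Its partner subunit *Mpc1*, named for that reason, was at 0.30 (adjusted p = 0.0667 by edgeR and 0.0340 by DESeq2). *Me1*, a malic enzyme named after its values were seen, was at 0.20 (adjusted p = 0.127 by edgeR and 0.0575 by DESeq2). *Ldha*, a lactate dehydrogenase subunit, had a log2 fold change of 0.32 (SE 0.278, adjusted p = 0.583).

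Of 10 tested genes for pyruvate dehydrogenase and its control *Pdk2* was the 1 called by edgeR and by DESeq2, and *Pdp2*, a phosphatase that reactivates the complex, was at 0.28 (adjusted p = 0.134). At an unadjusted p under 0.05 edgeR had 3 of the 10 higher and 0 lower.

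None of the 8 tested genes between phosphoenolpyruvate and dihydroxyacetone phosphate was called higher or lower by edgeR, and the count was also 0 at an unadjusted p under 0.05 and by DESeq2 and voom. Their SEs ran from 0.103 to 0.660, and the summed level was lowest in AdLacZ 1 (3930 CPM) and 5615 to 7395 CPM in the other 5 libraries. The largest values were those of *Eno2*, an enolase (log2 fold change -0.33, SE 0.660, adjusted p = 0.832), and *Tpi1*, triose phosphate isomerase (0.16, SE 0.201, adjusted p = 0.704); the sign of *Eno2* turned without AdLacZ 2 (0.51) and that of *Tpi1* without AdLacZ 1 (-0.05). *Eno1*, the usual enolase of this step, was listed with at most 2 counts, while the row of its near-identical copy *Eno1b* held 1163 to 2950, so enolase could not be read from *Eno1*.

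Of the 8 tested genes of glycerol and glycerol 3-phosphate handling none was called by edgeR, although 3 had an unadjusted p under 0.05 and DESeq2 called 1, *Gk5*. The largest values were *Gk5*, a relative of glycerol kinase (log2 fold change -0.51, adjusted p = 0.128), and *Gk* itself. *Gpd1l*, which resembles *Gpd1*, was at 0.29 (adjusted p = 0.150) and *Gpam*, the mitochondrial enzyme that puts the first acyl chain on glycerol 3-phosphate, at 0.17 (adjusted p = 0.229), both named after their values were seen.

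Transcription factors and coregulators known to act on *Pck1* or *Aqp7* had 3 of 9 tested genes called higher and 0 lower by edgeR (6 and 0 at an unadjusted p under 0.05, and 4 and 0 called by DESeq2). Over all tested genes edgeR called 2.71% higher and 1.57% lower. *Cebpa*, an adipogenic C/EBP factor, measured 232, 207 and 230 CPM in AdLacZ and 308, 360 and 337 CPM in AdLmo3 (log2 fold change 0.59, adjusted p = 0.0111). *Pparg*, the nuclear receptor that TZD activates, was at 0.48 (adjusted p = 0.0316) and *Nr1h3*, the oxysterol receptor LXRα, at 0.39 (adjusted p = 0.0405). All 3 are also genes of the mature fat cell. The groups overlapped for none of them, and 13.3% of all tested genes were likewise separated with AdLmo3 higher. DESeq2 also called *Rxra* (log2 fold change 0.34, adjusted p = 0.0652 by edgeR and 0.00472 by DESeq2). The smallest log2 fold changes of the list were those of *Creb1* (0.01, edgeR adjusted p = 0.944) and *Ppargc1a* (0.08, edgeR adjusted p = 0.668). *Rxra*, *Creb1* and *Ppargc1a* were named after their values were seen.

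Enzymes that would carry the route on to free glucose, as in liver and kidney, were near the limit of detection or not called. *Fbp1* had at most 1 count in any library, *G6pc*, the glucose 6-phosphatase of liver, had 8 to 31 counts (log2 fold change 1.00, SE 0.365, adjusted p = 0.170), and *Slc37a4*, the glucose 6-phosphate transporter, was at 0.17 (adjusted p = 0.571).

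**Figure D3:**
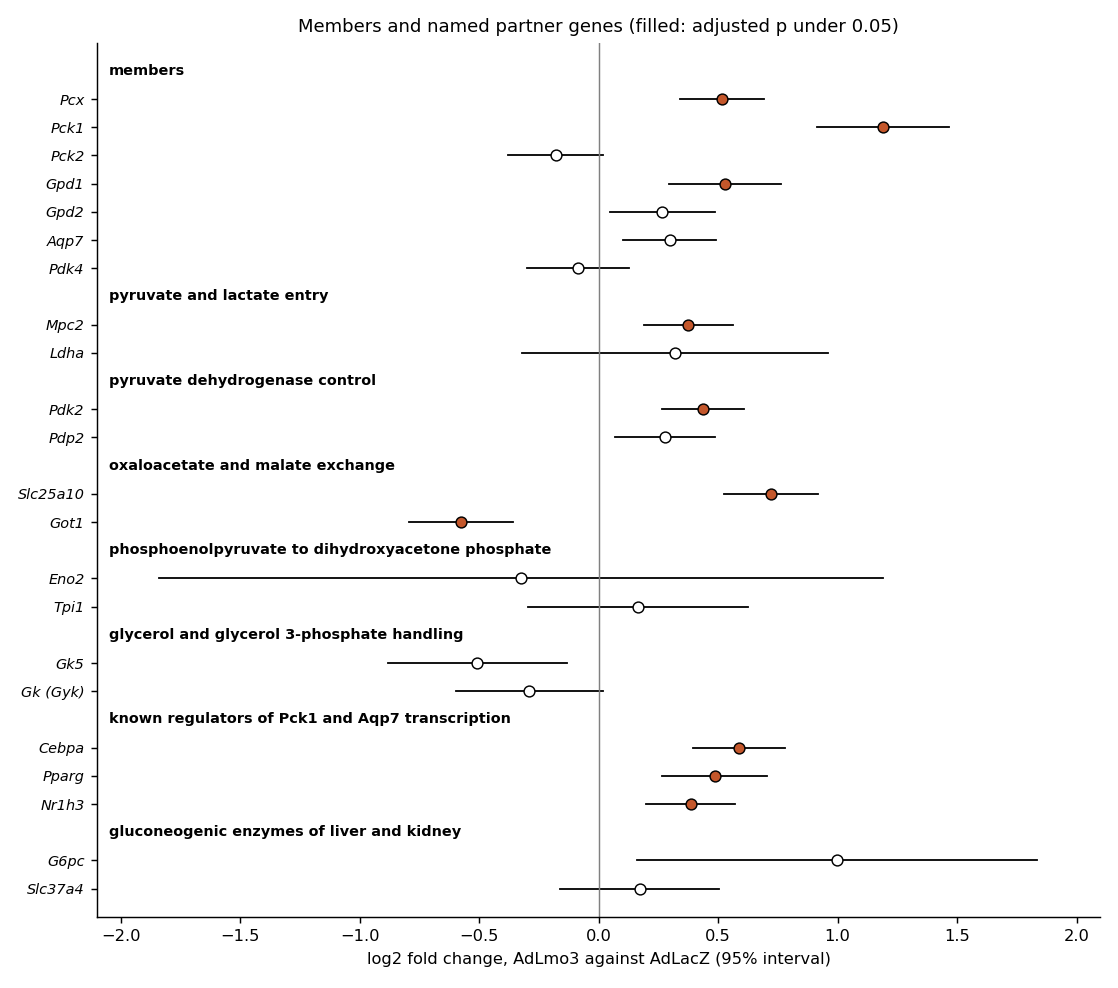
Log2 fold change of AdLmo3 against AdLacZ with its 95% interval for the 7 genes and the partner genes named by rule, by list; filled points have an adjusted p under 0.05. *Pck1* lies farthest to the right of the called genes at 1.19, and *Got1* is the called gene on the left at -0.58.

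With 1 library left out at a time, *Slc25a10* kept its call in all 6 fits. *Cebpa* lost it without AdLacZ 3 (adjusted p = 0.0601), and *Got1* without AdLacZ 2, AdLacZ 3 or AdLmo3 2 (0.0556 to 0.0872). *Pdk2* lost it without AdLacZ 1, AdLacZ 3 or AdLmo3 2 (0.0579 to 0.104). *Mpc2* kept it only without AdLacZ 1, *Pparg* only without AdLmo3 1, and *Nr1h3* in none of the 6 (0.0589 to 0.134). *Gk5* was called without AdLacZ 1 (0.0304), whereas *Gk* (0.0358), *Mdh1* (0.0466) and *Slc25a12* (0.0154) were called without AdLmo3 1.

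Across the 6 libraries, likeness was measured as the root mean square (RMS) difference of log2 CPM after centring each gene, over all other 12765 tested genes. *Pcx* and *Gpd1* were each other's nearest within the 7 (RMS 0.0997), and *Gpd1* was also nearest to *Pck1* (0.341). Among all other tested genes, however, *Gpd1* was only 153rd nearest to *Pcx* and 202nd nearest to *Pck1*, and *Pcx* was 62nd nearest to *Gpd1*. Over all tested genes the pattern most like *Pck1* was that of *Igfals* (RMS 0.0564), then *Sult1a1* (0.107) and *Adcyap1r1* (0.114). Those most like *Pcx* were *Fgfr1* (0.0285), *Retsat* and *Rdh11*, and those most like *Gpd1* were *Dbi* (0.0366), *S100a13* and *Nol3*. For *Aqp7* they were *Mocs1* (0.0315), *Ifngr1* and *Nit2*, for *Gpd2* *Vcl* (0.0296), *Klhl2* and *Ctla2b*, for *Pck2* *Eno3* (0.0262), *1110046J04Rik* and *Slc25a39*, and for *Pdk4* *Cisd3* (0.0209), *Atpaf1* and *Nr1h2*. The 6 points share libraries and scaling, so these values describe likeness only.

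**Figure D4:**
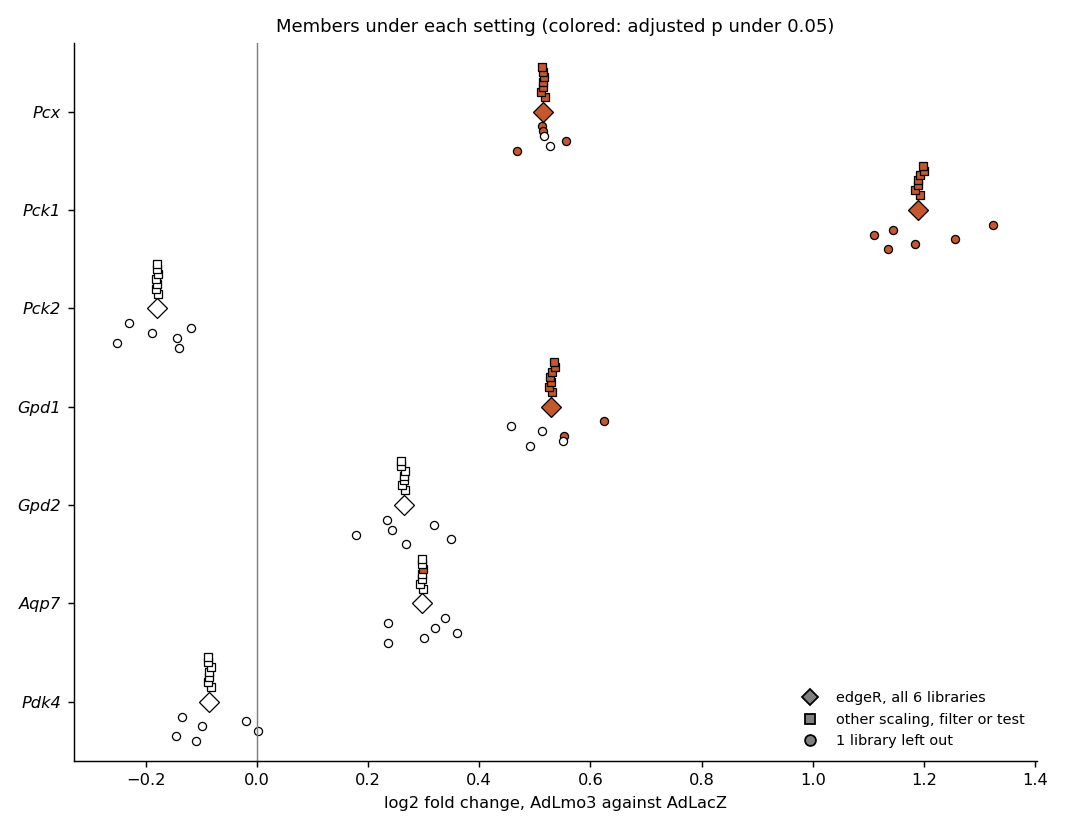
Log2 fold change of the 7 genes from the edgeR fit of all 6 libraries (diamonds), under other scaling, filters, tests or the replicate block (squares) and with 1 library left out (circles); colored points have an adjusted p under 0.05. *Pck1* is colored in every fit, *Pcx* and *Gpd1* lose their color in 2 and 4 of the fits with a library left out, and *Aqp7* is colored under DESeq2 alone.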

How the data were processed

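RNA-Seq of 6 libraries (3 AdLacZ, 3 AdLmo3) was used. Per the labels, the authors prepared libraries with a NEBNext Ultra II RNA kit, read 75 bp single ends and mapped them with STAR 2.5.0b to mm10, and they deposited whole-number counts per gene symbol without normalization. The counting program, annotation and strand setting are not given in the sources used here. Reads given to no gene (7.15 to 8.94%) or to several genes (0.476 to 0.543%) were left out.

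The edgeR 4.0.16 quasi-likelihood test (R 4.3.3) was run on the counts with group as the only term, after filterByExpr and TMM scaling, with Benjamini-Hochberg adjustment over 12766 genes and a threshold of 0.05; scripts were tested on simulated data. CPM values are TMM-normalized, and RPKM divides them by exon length in GENCODE for GRCm38. Ratios within libraries were compared by exact permutation. Alternatives were RLE and upper-quartile scaling, no filter and at least 1 CPM in 3 libraries, DESeq2 1.42.0, limma 3.58.1 voom, the replicate block, and leaving out each library. Figures used matplotlib 3.10.9.

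The 7 genes, the partner lists and the markers were chosen with earlier results of these data known. Named were the 7 genes; per partner list the called genes (at most 5) or, with fewer than 2 called, the 2 with the largest absolute log2 fold change; the denominators of the ratios; and 3 genes of like pattern per gene.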

Additional observations from a re-analysis of the deposited data

How the results depend on the processing

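With 3 libraries per group, leaving out 1 changed many calls: over all tested genes 55 to 354 were then called higher and 22 to 147 lower, against 346 and 201, and 1 to 3 of the 7 genes, 1 to 5 partner genes higher and 0 to 3 lower. Leave-one-out log2 fold changes ran from 0.47 to 0.56 for *Pcx*, 0.46 to 0.62 for *Gpd1*, -0.14 to 0.00177 for *Pdk4*, -0.82 to 0.51 for *Eno2*, -0.0454 to 0.37 for *Tpi1* and -0.0564 to 0.58 for *Pdk1*. DESeq2 called 672 genes higher and 438 lower, *Aqp7* (0.30) among them, and 10 partner genes higher and 3 lower; without a count filter 2 partner genes were lower, and voom turned *Eno2* to 0.16. The causes were not tested. *Mpc2* lost its call under upper-quartile scaling (adjusted p = 0.0543) and with the replicate block. *Pck1*, the absence of a call for *Pck2*, *Pdk4* and *Gpd2*, and the direction of all 5 ratios held under every alternative run.

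The sample titles link same-numbered libraries by number alone, so whether they were paired is not known. Their deviations from the group means correlated at 0.0345, 0.176 and 0.176, and 2 of the 3 numbers correlated best with themselves. With the replicate block 498 genes were called against 547, the same 3 of the 7 genes, and 2 partner genes lower, and *Pck1* was at 1.20 (adjusted p = 0.0133). *Mpc2* lost its call with the block (adjusted p = 0.0572), and *Slc25a1* (0.0456) and *Slc25a12* (0.0341) gained one.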
